A study of Mus musculus with 16 samples.

Results

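Described here are the RNA levels of the subunits of the 26S proteasome, of its activators and assembly factors, and of the cytosolic chaperonin CCT in mouse lung fibroblasts. Members were taken by symbol (Psma, Psmb, Psmc, Psmd, Psme and Psmf genes with a number, and Cct2 to Cct8), leaving out the interferon-inducible Psmb8 and Psmb9. The reference lists 61 such symbols, of which 54 have a transcript and 53 a probe on the array. Of these, 51 were tested, among 15394 genes in all, because in 1 group or more each of the 4 arrays had them well above background. Cct8l1 and Psmb11, the thymus-specific beta subunit, met this in no group, and Psme2 had no probe of its own. Psmc3ip and Psme3ip1 match by symbol but are no subunits, which leaves 41 proteasome and 8 chaperonin genes, 49 in all, as the subunits counted below.

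The samples were primary lung fibroblasts of female mice aged 8 weeks, measured on 1-colour Agilent arrays with 4 independent experiments in each of 4 groups. Knockout TGF-β1 cells lacked meflin (Islr), a membrane-anchored protein of fibroblasts, and received recombinant TGF-β1 at 5 ng/ml for 48 h. Knockout vehicle cells lacked it and received none, and wild type TGF-β1 and wild type vehicle cells came from C57BL/6J mice and were kept in the same ways. The labels name enzymatic digestion and mention no sorting. The 75th percentile of intensity was 382 to 446, 470 to 519, 429 to 452 and 486 to 526 in these 4 groups in that order, no probe of a member was saturated, and the number of arrays limits the precision. On none of the 8 knockout arrays did the Islr probe stand well above background, with mean log2 intensities of 1.76 ± 0.07 with TGF-β1 and 1.45 ± 0.16 with vehicle, against 8.34 ± 0.08 with TGF-β1 and 10.82 ± 0.06 with vehicle in wild type cells (SD, n = 4 each).

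The 26S proteasome degrades proteins tagged with ubiquitin. Its 20S core is a barrel of alpha rings, which form the gate, around beta rings, which carry the cutting sites, and its 19S particle binds, unfolds and feeds in the substrate. The 19S base holds a ring of ATPases and large scaffold subunits, and its lid holds the enzyme that removes ubiquitin. Activators of the Psme family can take the place of the 19S particle, and interferon-inducible beta subunits can replace constitutive ones to form the immunoproteasome, which makes peptides for antigen presentation. CCT is a double ring of related subunits in which actin and tubulin fold. The transcription factor NRF1 (Nfe2l1) is known to raise proteasome genes together, and heat shock factor to raise chaperone genes. TGF-β1 turns fibroblasts into contractile, matrix-producing myofibroblasts, cells rich in actin.

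After TGF-β1 nearly all constitutive subunits rose relative to the 75th percentile of each array (fewer under other scalings, as given below), and in knockout cells they rose further than in wild type cells. In knockout cells 41 of the 49 subunits rose, 5 fell and 3 did not pass the test, with a median log2 difference of 0.66 (1.58-fold) against 0.10 over all genes. Over all genes 46.6% rose and 35.9% fell in that comparison at an adjusted p under 0.05. In wild type cells 42 rose, 4 fell and 3 did not pass, with a median of 0.35 (1.27-fold) against 0.08 over all genes, where 41.3% of all genes rose and 27.3% fell. The shares that rose were higher among genes as bright as most subunits, as given below. Of the 32 subunits of the 20S core and the 19S particle, 31 rose in either genotype, 24 in knockout and 18 in wild type cells under all 3 scalings described below. The exception was Psma8, a testis form. The genes that fell were the inducible beta subunit Psmb10 and members of the activator class, besides Psma8.

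How far the subunits rose depends on how the arrays are set against each other. All levels above are relative to the 75th percentile of each array, and bright probes as a whole rose on that scale. Among other genes with a mean log2 intensity of 14 or more, the median difference was 0.41 in knockout and 0.25 in wild type cells, against 0.65 and 0.36 for the 20 subunits of that brightness. Of these other genes 74.2% rose in knockout and 72.5% in wild type cells. At an intensity of 12 to 14, where another 20 subunits lay, 65.5% and 58.3% of other genes rose. With quantile normalization the median of the 49 subunits was 0.21 in knockout and 0.13 in wild type cells, and 33 and 31 of them rose. Cyclic loess normalization, chosen after the data were seen, gave 0.24 and 0.11, with 36 and 27 rising. These scalings also moved the median of all genes in knockout cells, to -0.01 with quantile and -0.05 with loess normalization. Relative to all genes, the subunits' median in knockout cells was higher by 0.55 with the percentile shift, 0.22 with quantile and 0.29 with loess normalization. Under all 3 scalings 33 subunits rose in knockout cells and 27 in wild type cells, and 4 fell in each genotype. Shares over all genes are given for the percentile shift alone, where each comparison is introduced. Counts by class and by gene list are given without a share of their own and are to be read against these. With TGF-β1 46.6% of all genes rose and 35.9% fell in knockout cells, and 41.3% rose and 27.3% fell in wild type cells. Counts under the other scalings, or under all 3, therefore have no such share to be read against.

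**Figure D1:**
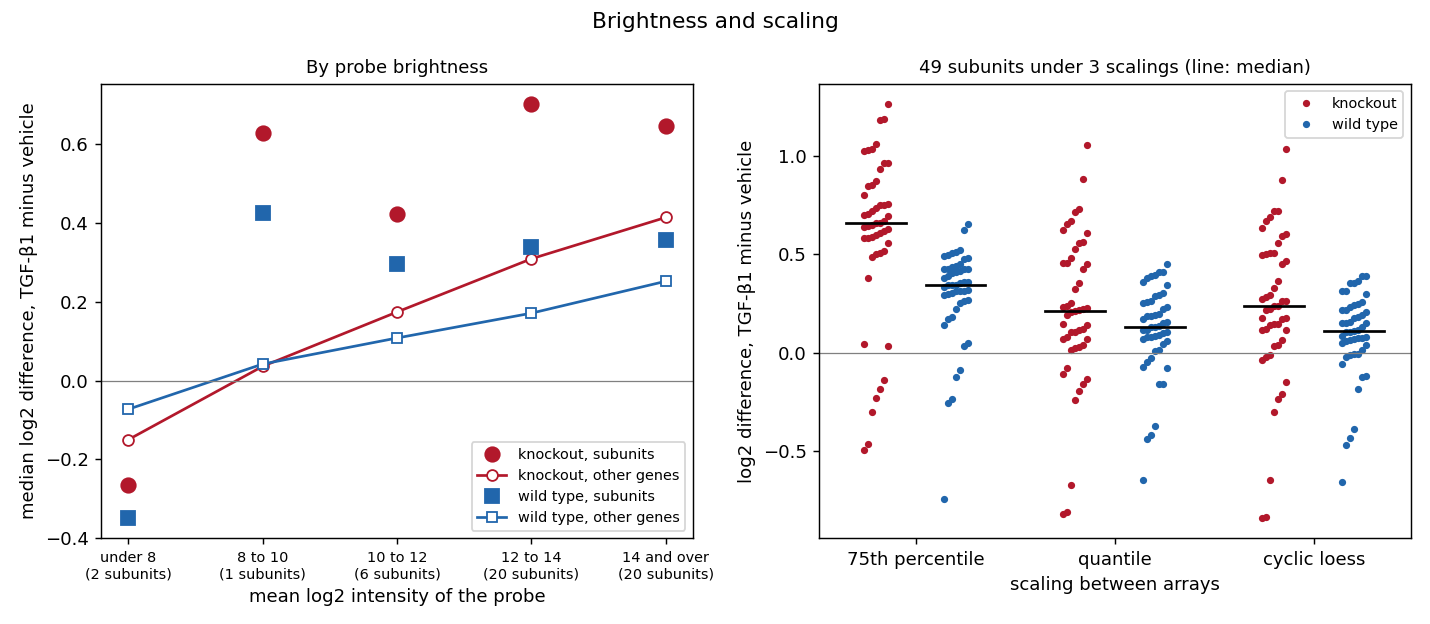
Left, median log2 difference (TGF-β1 minus vehicle) of the subunits (filled) and of all other genes (open) against the mean log2 intensity of the probe, for knockout (red circles) and wild type (blue squares). Right, log2 difference of each of the 49 subunits under 3 ways of scaling the arrays, with the median as a line; the knockout median was 0.66, 0.21 and 0.24 from left to right.

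Promoters of 41 of the 49 subunits were in the RefSeq-derived table (build GRCm38.p6, 250 bases before to 50 after the start). As examples, 5 that hold the letters of a regulator discussed for these genes are printed, and others with such letters are counted below. Capitals mark the match: an antioxidant response element (TGACNNNGC), the site that NRF1 and NRF2 bind with small Maf proteins, in the first 3, sites of nuclear respiratory factor 1, a different protein, in the chaperonin gene Cct3, and an interferon-stimulated response element in the activator gene Psme1.
Psmb5 promoter (chr14:54617946-54618245, minus strand): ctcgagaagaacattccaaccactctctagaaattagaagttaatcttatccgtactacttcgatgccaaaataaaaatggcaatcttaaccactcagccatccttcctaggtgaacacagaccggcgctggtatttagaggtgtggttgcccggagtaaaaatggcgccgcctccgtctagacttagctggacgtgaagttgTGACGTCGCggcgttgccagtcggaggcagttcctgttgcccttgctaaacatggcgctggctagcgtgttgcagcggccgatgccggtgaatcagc
Psmc6 promoter (chr14:45329574-45329873, plus strand): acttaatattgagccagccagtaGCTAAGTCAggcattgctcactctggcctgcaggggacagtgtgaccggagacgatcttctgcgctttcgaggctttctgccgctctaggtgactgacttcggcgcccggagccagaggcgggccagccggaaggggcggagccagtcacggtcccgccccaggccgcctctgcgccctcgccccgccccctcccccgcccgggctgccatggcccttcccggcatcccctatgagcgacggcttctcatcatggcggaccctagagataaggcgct
Psmd12 promoter (chr11:107479278-107479577, plus strand): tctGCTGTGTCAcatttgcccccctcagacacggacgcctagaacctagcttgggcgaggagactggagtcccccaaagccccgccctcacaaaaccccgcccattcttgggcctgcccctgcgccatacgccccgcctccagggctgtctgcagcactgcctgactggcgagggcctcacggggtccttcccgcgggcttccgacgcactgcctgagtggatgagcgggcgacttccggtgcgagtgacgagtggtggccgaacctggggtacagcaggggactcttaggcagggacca
Cct3 promoter (chr3:88296885-88297184, plus strand): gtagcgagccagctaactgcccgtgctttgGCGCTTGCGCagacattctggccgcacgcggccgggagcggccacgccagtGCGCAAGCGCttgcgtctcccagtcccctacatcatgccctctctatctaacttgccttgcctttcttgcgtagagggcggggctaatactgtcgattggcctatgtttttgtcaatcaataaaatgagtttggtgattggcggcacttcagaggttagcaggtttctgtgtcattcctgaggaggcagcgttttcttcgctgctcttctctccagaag
Psme1 promoter (chr14:55578244-55578543, plus strand): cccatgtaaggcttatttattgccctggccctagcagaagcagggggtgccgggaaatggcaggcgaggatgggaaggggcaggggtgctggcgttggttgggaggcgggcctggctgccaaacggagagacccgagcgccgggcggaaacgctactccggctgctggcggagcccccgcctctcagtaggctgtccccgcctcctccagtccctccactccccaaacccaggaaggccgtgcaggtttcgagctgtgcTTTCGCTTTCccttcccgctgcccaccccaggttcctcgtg

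Both strands were searched, and no match overlapped a match of another motif. The antioxidant response element was found in 8 of the 41 subunit promoters (19.5%), those of Cct2, Cct6a, Psmb5, Psmb6, Psmc6, Psmd12, Psmd9 and Psme4, against 14% of 27025 genes. The nuclear respiratory factor 1 site was also found in 8 (19.5%), against 5.19% of all genes, and the interferon-stimulated response element in 4 (9.76%), those of Psmb3, Psmd4, Psmd9 and Psme1, against 3.99%. CCAAT boxes (CCAAT) were in 39% of subunit promoters and 41.1% of all. No subunit promoter held a heat shock element in either of 2 spellings, which 0.662% of all genes did. The 8 genes with an antioxidant response element had a median log2 difference of 0.86 in knockout and 0.42 in wild type cells, against 0.65 and 0.34 for the 33 without. For the nuclear respiratory factor 1 site these medians were 0.69 and 0.35, against 0.64 and 0.34. For the interferon-stimulated response element they were 0.61 and 0.33, against 0.66 and 0.34 for the 37 without, and for the CCAAT box 0.64 and 0.35, against 0.66 and 0.34 for the 25 without. A match is a description of the letters, and binding was not measured.

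In the 20S alpha ring, the gate of the core, 7 of 8 subunits rose in both genotypes, with a class median of 0.63 in knockout and 0.30 in wild type cells. With quantile normalization 5 and 4 rose (medians 0.13 and 0.09), and with loess normalization 6 and 2 (medians 0.17 and 0.07). Psma3 and Psma7 showed the largest rises in knockout cells. The log2 level of Psma3 was 15.40, 15.35, 15.44 and 15.46 on the knockout TGF-β1 arrays, against 14.69, 14.66, 14.67 and 14.59 on the knockout vehicle arrays. Among wild type arrays it was 14.94, 14.93, 14.96 and 14.96 on the wild type TGF-β1 arrays, against 14.62, 14.45, 14.62 and 14.68 on the wild type vehicle arrays. Neither pair of groups overlapped. The differences were 0.76 ± 0.05 (SE, adjusted p = 4.08e-10) and 0.36 ± 0.05 (adjusted p = 5.05e-06), and the wild type one kept its sign but not its call under quantile and loess normalization. Psma7 differed by 0.75 ± 0.05 in knockout and 0.44 ± 0.05 in wild type cells, and Psma4 by 0.66 ± 0.05 and 0.27 ± 0.05. The wild type value of Psma4 turned to -0.01 with loess normalization, and that of Psma2, 0.26, turned to -0.05 with quantile and -0.02 with loess normalization. Of the 7 constitutive alpha genes Psma5 showed the smallest knockout difference, 0.48 ± 0.03.

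Psma8, the testis alpha subunit that can replace Psma7, was dim and went the other way. Its log2 level was 5.84, 6.16, 5.76 and 5.59 on the knockout TGF-β1 arrays, against 6.21, 6.06, 6.25 and 6.02 on the knockout vehicle arrays, with overlap. In wild type cells it was 5.80, 6.04, 5.81 and 5.68 on the wild type TGF-β1 arrays, against 6.56, 6.56, 6.42 and 6.78 on the wild type vehicle arrays, without overlap. The difference was -0.30 ± 0.11 in knockout cells (adjusted p = 0.0227) and -0.74 ± 0.11 in wild type cells (adjusted p = 3.07e-05). The knockout call was lost under quantile and loess normalization and when knockout TGF-β1 replicate 3 or 4, or knockout vehicle replicate 1 or 3, was left out, with values of -0.22 to -0.27, and the authors' deposited table held 0.46 for that comparison without passing the test.

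All 7 subunits of the 20S beta ring rose in both genotypes, with medians of 0.74 and 0.35. With quantile normalization 5 rose in knockout and 6 in wild type cells (medians 0.23 and 0.15), and with loess normalization 5 in each (medians 0.27 and 0.11). The ring carries 3 active subunits, Psmb5 with chymotrypsin-like, Psmb6 with caspase-like and Psmb7 with trypsin-like activity. Psmb7 stood at 12.82, 12.68, 12.89 and 12.83 on the knockout TGF-β1 arrays, against 11.84, 11.77, 11.76 and 11.75 on the knockout vehicle arrays, so that every TGF-β1 array lay above every vehicle array. Wild type cells had it at 12.23, 12.14, 12.20 and 12.23 on the wild type TGF-β1 arrays, against 11.76, 11.95, 11.74 and 11.72 on the wild type vehicle arrays. Its difference was 1.03 ± 0.05 in knockout cells (2.04-fold, adjusted p = 8.15e-11) and 0.41 ± 0.05 in wild type cells (1.33-fold, adjusted p = 7.84e-06). Psmb5, whose promoter is printed above, stood at 13.41, 13.38, 13.54 and 13.52 on the knockout TGF-β1 arrays, against 12.60, 12.61, 12.66 and 12.57 on the knockout vehicle arrays. Wild type values were 12.93, 12.93, 12.996 and 12.99 with TGF-β1, against 12.51, 12.58, 12.54 and 12.53 with vehicle. Its differences were 0.85 ± 0.04 and 0.42 ± 0.04, and the groups did not overlap in either genotype.

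The third active subunit gave a value that the scaling decides. Psmb6 differed by 0.50 ± 0.05 in knockout and 0.17 ± 0.05 in wild type cells, but by -0.08 and -0.16 with quantile normalization, both past the threshold, and by -0.01 and -0.12 with loess normalization. Psmb4, a structural subunit, differed by 0.52 ± 0.05 and 0.34 ± 0.05, and by 0.01 and 0.08 with quantile normalization. Psmb1, Psmb2 and Psmb3, which carry no active site, differed by 0.59 ± 0.04, 0.85 ± 0.06 and 0.74 ± 0.04 in knockout cells and by 0.32 ± 0.04, 0.41 ± 0.06 and 0.35 ± 0.04 in wild type cells, and these rose under all 3 scalings in both.

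The ATPases of the 19S base, which unfold the substrate, rose in 6 of 6 cases in both genotypes (medians 0.65 and 0.34). With quantile normalization 4 rose and 1 fell in each genotype (medians 0.21 and 0.15), Psmc1 losing its call in knockout and Psmc2 in wild type cells, and with loess normalization 5 rose in knockout and 4 in wild type cells (medians 0.24 and 0.14). Psmc6 led them, at 14.94, 14.86, 14.95 and 14.98 on the knockout TGF-β1 arrays, against 13.92, 14.04, 13.93 and 13.97 on the knockout vehicle arrays. In wild type cells it stood at 14.53, 14.51, 14.53 and 14.57 on the wild type TGF-β1 arrays, against 13.90, 13.85, 13.96 and 13.95 on the wild type vehicle arrays. No array of one treatment reached the range of the other. The differences were 0.96 ± 0.04 (adjusted p = 2.05e-12) and 0.62 ± 0.04 (adjusted p = 1.2e-09). Psmc4 differed by 0.72 ± 0.04 in knockout and 0.34 ± 0.04 in wild type cells, Psmc1 by 0.64 ± 0.06 and 0.44 ± 0.06, and Psmc3 by 0.51 ± 0.04 and 0.29 ± 0.04. Psmc3 turned to -0.13 and -0.07 with quantile normalization, past the threshold, and to -0.02 and -0.01 with loess normalization.

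Of the other base subunits, the scaffolds Psmd1 and Psmd2 and the ubiquitin receptor Psmd4, all 3 rose (medians 0.58 and 0.25, but 0.12 and 0.04 with quantile and 0.14 and 0.01 with loess normalization). Psmd1 had log2 levels of 14.33, 14.36, 14.38 and 14.41 on the knockout TGF-β1 arrays, against 13.63, 13.66, 13.67 and 13.69 on the knockout vehicle arrays. For wild type cells they were 13.80, 13.87, 13.91 and 13.81 on the wild type TGF-β1 arrays, against 13.62, 13.48, 13.61 and 13.66 on the wild type vehicle arrays. The groups stood apart in both genotypes. Its differences were 0.71 ± 0.04 and 0.25 ± 0.04, those of Psmd4 0.58 ± 0.05 and 0.31 ± 0.05, and those of Psmd2 0.56 ± 0.04 and 0.22 ± 0.04. In wild type cells none of the 3 passed the test with quantile or loess normalization, and Psmd2 was at -0.01 with loess.

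The 19S lid rose as a whole, 8 of 8 subunits in both genotypes (medians 0.78 and 0.42, but 0.44 and 0.22 with quantile and 0.46 and 0.18 with loess normalization). Psmd8 showed the largest differences of the lid. Its values were 13.58, 13.52, 13.59 and 13.67 on the knockout TGF-β1 arrays, against 12.58, 12.54, 12.53 and 12.57 on the knockout vehicle arrays. Wild type values were 13.19, 13.10, 13.17 and 13.14 with TGF-β1, against 12.62, 12.65, 12.65 and 12.66 with vehicle. That is 1.03 ± 0.03 in knockout cells (adjusted p = 3.54e-13) and 0.50 ± 0.03 in wild type cells (adjusted p = 4.96e-09), with no overlap. Psmd14, the enzyme that cuts ubiquitin off the substrate, was 13.87, 13.76, 13.78 and 13.85 on the knockout TGF-β1 arrays, against 12.85, 12.90, 12.88 and 12.89 on the knockout vehicle arrays. Its difference was 0.93 ± 0.04 in knockout and 0.43 ± 0.04 in wild type cells. Psmd12, whose promoter is printed above, differed by 0.87 ± 0.04 and 0.39 ± 0.04, Psmd11 by 0.80 ± 0.03 and 0.48 ± 0.03, and Psmd3 by 0.60 ± 0.04 and 0.43 ± 0.04. Under all 3 scalings 8 of 8 lid genes rose in knockout cells and 7 in wild type cells, where Psmd6 lost its call with loess normalization.

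Among the chaperones that assemble the 19S base, Psmd5 showed the largest knockout difference of all 49 subunits. Its log2 level was 11.88, 11.83, 11.92 and 11.87 on the knockout TGF-β1 arrays, against 10.63, 10.66, 10.62 and 10.54 on the knockout vehicle arrays. The wild type levels were 11.01, 10.94, 11.05 and 11.04 on the wild type TGF-β1 arrays, against 10.39, 10.62, 10.52 and 10.43 on the wild type vehicle arrays. Every TGF-β1 array lay above every vehicle array, and the knockout TGF-β1 arrays above all others. The difference was 1.26 ± 0.05 in knockout cells (2.4-fold, adjusted p = 1.89e-12) and 0.52 ± 0.05 in wild type cells (1.44-fold, adjusted p = 1.66e-07). It was 1.05 and 0.45 with quantile normalization. Psmd9 differed by 0.63 ± 0.03 and 0.43 ± 0.03. Psmd10 did not pass, at 0.04 ± 0.03 and 0.04 ± 0.03, but passed as lower in both genotypes, at -0.19 and -0.08, with quantile normalization.

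**Figure D2:**
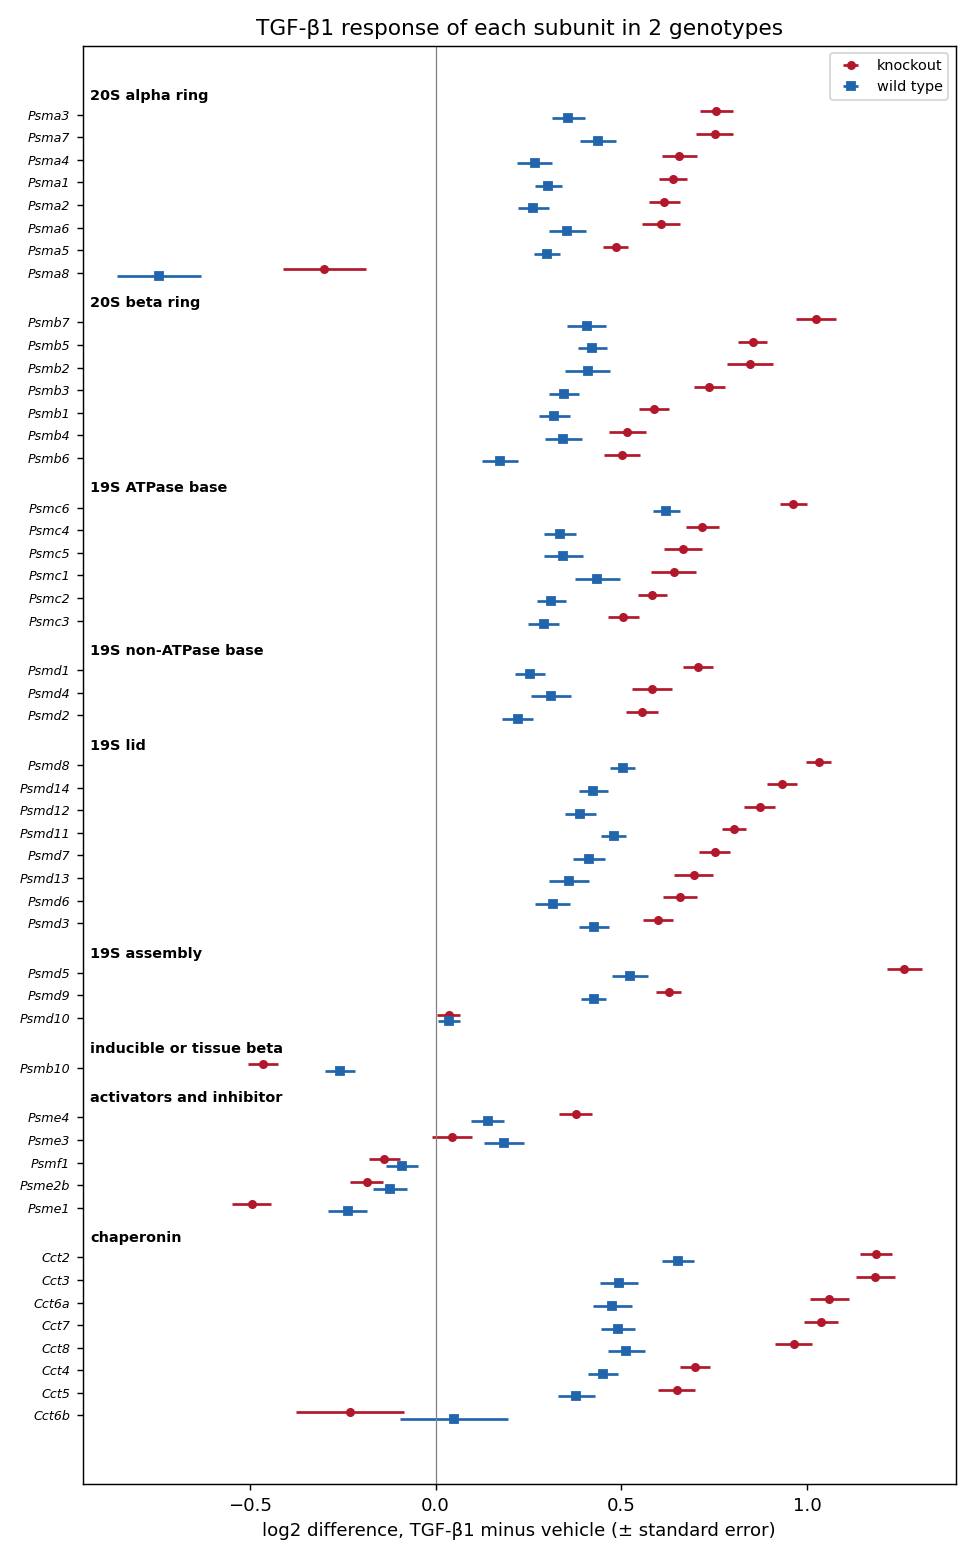
Log2 difference between TGF-β1 and vehicle (± standard error, 4 arrays a group) of each of the 49 subunits by class, in knockout (red circles) and wild type (blue squares) cells. Psmd5 (1.26 in knockout), Cct2 and Cct3 (1.19 and 1.18) lie farthest right, and Psme1, Psmb10 and Psma8 lie left of 0 in both genotypes.

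Psmb10, the inducible trypsin-like subunit that replaces Psmb7 in the immunoproteasome, fell in both genotypes. Its log2 level was 12.75, 12.78, 12.85 and 12.87 on the knockout TGF-β1 arrays, against 13.29, 13.28, 13.26 and 13.27 on the knockout vehicle arrays. In wild type cells it was 12.95, 13.03, 13.03 and 12.94 on the wild type TGF-β1 arrays, against 13.23, 13.15, 13.30 and 13.28 on the wild type vehicle arrays. Neither pair overlapped, and the direction is the reverse of that of Psmb7. The difference was -0.46 ± 0.04 in knockout cells (adjusted p = 3.78e-08) and -0.26 ± 0.04 in wild type cells (adjusted p = 4.71e-05), and with loess normalization -0.83 and -0.47.

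The activator class moved in mixed directions, 1 gene up and 3 down in knockout cells and 2 up and 2 down in wild type cells (medians -0.14 and -0.09). With quantile or loess normalization none of the 5 rose, and 4 fell in knockout and 3 in wild type cells. Psme1, a subunit of the interferon-inducible activator PA28αβ, stood at 12.25, 12.40, 12.44 and 12.37 on the knockout TGF-β1 arrays, against 12.87, 12.83, 12.85 and 12.90 on the knockout vehicle arrays. Among wild type arrays it was 12.60, 12.66, 12.74 and 12.69 on the wild type TGF-β1 arrays, against 12.79, 12.99, 12.996 and 12.86 on the wild type vehicle arrays. It fell without overlap in both, by -0.50 ± 0.05 (adjusted p = 3.61e-07) and -0.24 ± 0.05 (adjusted p = 0.000949) as signed log2 differences, and by -0.84 and -0.43 with loess normalization. Psme2b, a copy of its partner Psme2, whose RNA its probes may also report (not tested), differed by -0.19 ± 0.05 and -0.12 ± 0.05, both past the threshold. Psme4, the nuclear activator PA200, went the other way, at 12.98, 13.03, 12.96 and 13.01 on the knockout TGF-β1 arrays, against 12.63, 12.60, 12.61 and 12.62 on the knockout vehicle arrays. Its difference was 0.38 ± 0.04 in knockout cells (adjusted p = 1.18e-06), lost under quantile and loess normalization, and 0.14 ± 0.04 in wild type cells, which turned to -0.03 and -0.06 under them. Psme3, the nuclear PA28γ, differed by 0.04 ± 0.05 in knockout cells, which did not pass and was -0.21 and past the threshold with loess normalization, and by 0.18 ± 0.05 in wild type cells, which passed with the percentile shift alone. Psmf1, the inhibitor PI31, differed by -0.14 ± 0.04 and -0.09 ± 0.04, past the threshold in knockout cells alone, but its dimmer probe gave 0.96 and 0.58, so its direction is not settled. Psmf1 was the only one of 23 subunits with several kept probes in which another probe had the opposite sign for the TGF-β1 response.

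The chaperonin had the highest class median in knockout cells, 1.00, on the percentile scale, and its wild type median was 0.48; with quantile normalization 19S assembly, at 0.56, lay above it. Of its 8 tested genes 7 rose in both genotypes, and these 7 did so under all 3 scalings, with chaperonin medians of 0.51 and 0.24 under quantile normalization. Cct2 had log2 levels of 15.18, 15.13, 15.24 and 15.24 on the knockout TGF-β1 arrays, against 13.95, 14.01, 14.02 and 14.07 on the knockout vehicle arrays. In wild type cells it was 14.70, 14.69, 14.70 and 14.72 on the wild type TGF-β1 arrays, against 13.98, 13.98, 14.11 and 14.14 on the wild type vehicle arrays. The differences were 1.19 ± 0.04 (2.27-fold, adjusted p = 9.49e-13) and 0.65 ± 0.04 (1.57-fold, adjusted p = 3.47e-09). Cct3, whose promoter is printed above, stood at 12.93, 12.81, 13.08 and 12.86 on the knockout TGF-β1 arrays, against 11.83, 11.68, 11.73 and 11.71 on the knockout vehicle arrays. Wild type values were 12.33, 12.30, 12.30 and 12.31 with TGF-β1, against 11.80, 11.86, 11.86 and 11.74 with vehicle. Its differences were 1.18 ± 0.05 and 0.49 ± 0.05, and both other probes gave like values in knockout cells, with gaps of -0.05 and 0.02. Cct6a differed by 1.06 ± 0.05 and 0.48 ± 0.05, Cct7 by 1.04 ± 0.05 and 0.49 ± 0.05, Cct8 by 0.96 ± 0.05 and 0.51 ± 0.05, Cct4 by 0.70 ± 0.04 and 0.45 ± 0.04, and Cct5 by 0.65 ± 0.05 and 0.38 ± 0.05. Cct6b, the testis form of Cct6a, was dim and did not pass, at -0.23 ± 0.15 and 0.05 ± 0.15.

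**Figure D3:**
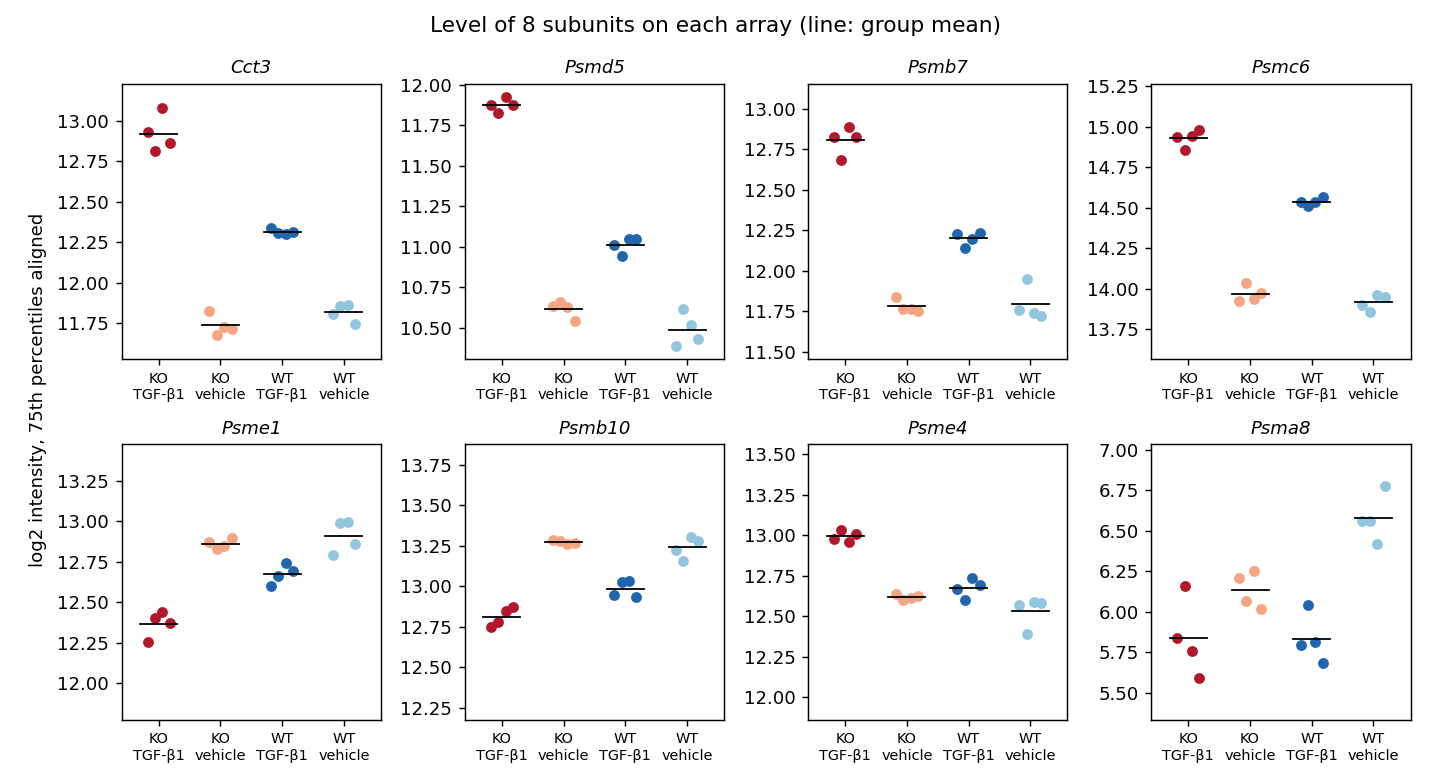
Log2 intensity after the 75th percentiles of the arrays were aligned, for 8 subunits on each of the 16 arrays (points) with the group mean (line); each panel spans the same number of log2 units. Cct3, Psmd5, Psmb7 and Psmc6 are highest on the knockout TGF-β1 arrays, and Psme1 and Psmb10 are lowest there.

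Whether the response differed between the genotypes was asked with the interaction, the knockout response minus the wild type response. It was positive and passed the test for 41 of 49 subunits, negative and past it for 2 (Psme1 and Psmb10), and did not pass for 6, with a median of 0.33 against 0.05 over all genes, where 31.7% were positive and 26.5% negative at that threshold. Among other genes it was positive for 46.1% at a log2 intensity of 12 to 14 and for 52.7% at 14 or more. With quantile normalization 21 subunits were positive and with loess normalization 28, with medians of 0.10 and 0.16, and 21 were positive under all 3 scalings. Psmd5 had the most positive interaction, 0.74 ± 0.07 (adjusted p = 3.12e-07), then Cct3 at 0.69 ± 0.07 (adjusted p = 1.44e-06) and Psmb7 at 0.62 ± 0.08 (adjusted p = 6.1e-06). The most negative were Cct6b at -0.28 ± 0.21, which did not pass (adjusted p = 0.262), Psme1 at -0.26 ± 0.07 (adjusted p = 0.00754) and Psmb10 at -0.21 ± 0.06 (adjusted p = 0.00598). The interactions of Psmd3, 0.17 ± 0.06, and Psmb4, 0.17 ± 0.07, turned to -0.08 and -0.07 with quantile normalization, as did those of Psma5 and Psmc3, to -0.05 and -0.06. Within slide 1, with 2 arrays a group, 17 subunits passed as positive, and within slide 2 41 did, with medians of 0.27 and 0.36.

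The 2 responses rest on different arrays and ranked the subunits alike. Across the 49 subunits Pearson's r between the knockout and the wild type log2 difference was 0.895 and Spearman's rho 0.875, as a description, since the genes share arrays, depth and scaling. Within the 32 subunits of the 20S core and 19S particle r was 0.89 and rho 0.739. On the percentile scale the knockout difference was the higher one for 42 of the 49, and for 32 of 32 in the 20S core and 19S particle together. For Psma8, among these 32, that means a smaller fall. With quantile normalization it was the higher one for 37 of the 49 and 27 of the 32, and with loess normalization for 38 and 28. No such share or correlation over all genes is given here. Within slide 1 the median response was 0.63 in knockout and 0.34 in wild type cells, and within slide 2 it was 0.70 and 0.35.

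Under TGF-β1, knockout cells had more RNA of most subunits than wild type cells. In that comparison 41 of 49 were higher, 3 were lower and 5 did not pass, with a median of 0.38 against 0.06 over all genes, of which 39.6% were higher and 30.5% lower. Of other genes, 58.6% at a log2 intensity of 12 to 14 and 65.5% at 14 or more were higher. The subunits' median was 0.13 with quantile and 0.15 with loess normalization. The comparison shares its arrays with those of the 2 responses. Under all 3 scalings 30 were higher and 3 lower. Psmd5 differed by 0.86 ± 0.05 (adjusted p = 4.95e-10), Cct6a by 0.64 ± 0.05 (adjusted p = 4.83e-08) and Cct3 by 0.61 ± 0.05 (adjusted p = 6.33e-08). At the low end stood Cct6b at -0.55 ± 0.15 (adjusted p = 0.00343), Psme1 at -0.31 ± 0.05 (adjusted p = 9.64e-05) and Psmb10 at -0.17 ± 0.04 (adjusted p = 0.00133). Cct6b was 4.43, 4.38, 4.07 and 4.42 on the knockout TGF-β1 arrays, against 4.84, 4.74, 5.22 and 4.71 on the wild type TGF-β1 arrays, and only 3 of the 4 knockout arrays had it well above background. With normexp background correction its difference was 0.03 and did not pass.

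With vehicle few subunits passed the test between the genotypes. Of the 49 subunits 2 were higher in knockout cells, 1 was lower and 46 did not pass, with a median of 0.05 against 0.03 over all genes. Over all genes 7.07% were higher and 6.16% lower. Psmd3 differed by 0.14 ± 0.04 (adjusted p = 0.0301), Psma5 by 0.12 ± 0.03 (adjusted p = 0.0332) and Psma8 by -0.44 ± 0.11 (adjusted p = 0.0171). Psmd3 stood at 14.53, 14.55, 14.57 and 14.58 on the knockout vehicle arrays, against 14.46, 14.38, 14.43 and 14.39 on the wild type vehicle arrays, so the groups lay apart by a small margin. Of 23 subunits with several kept probes, 13 had another probe of the opposite sign in this comparison, Psmd3 among them. Neither rise held under all 3 scalings, none of the 3 calls held within either slide, Psmd3 lost its call when any of 6 of the 8 vehicle arrays was left out, and Psma8 when knockout vehicle replicate 2 or 4 or wild type vehicle replicate 4 was. Psmc1, at 0.12 ± 0.06, and the lid subunit Psmd8, at -0.09 ± 0.03, did not pass.

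**Figure D4:**
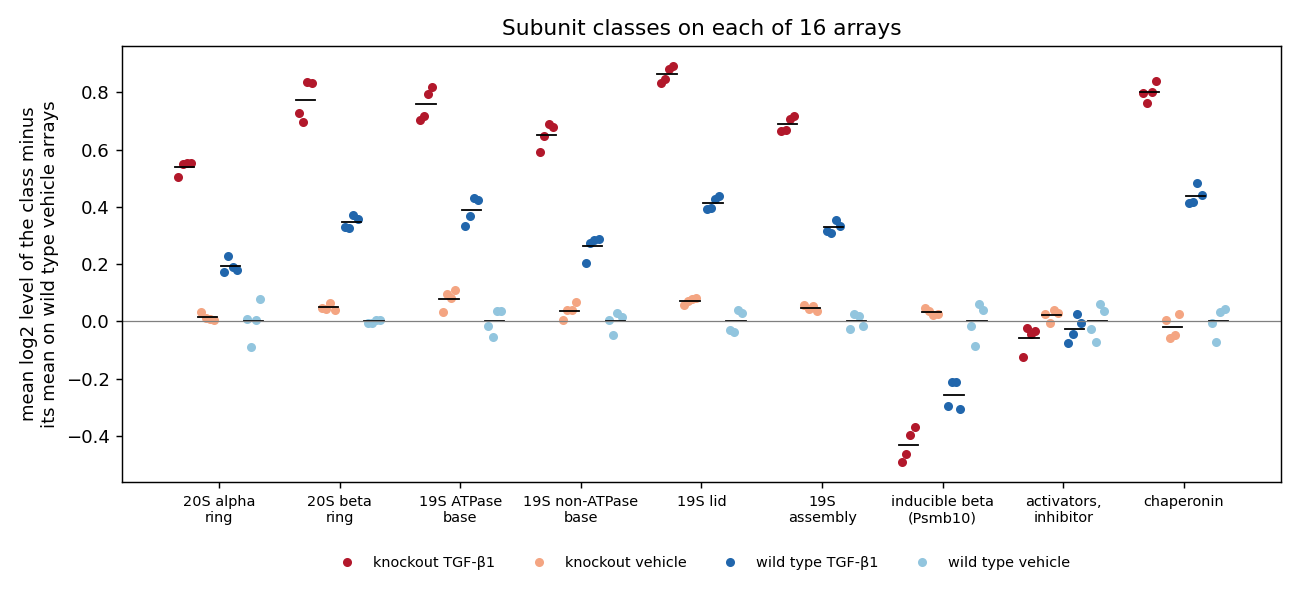
Mean log2 level of the members of each class on each array, minus the mean of the 4 wild type vehicle arrays; points are arrays and lines group means. In the 6 classes from the 20S alpha ring to 19S assembly and in the chaperonin, the 4 knockout TGF-β1 arrays lie above the 4 wild type TGF-β1 arrays, and both above all vehicle arrays.

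The 19S lid averaged 0.86 ± 0.03 on the knockout TGF-β1 arrays, 0.07 ± 0.01 on the knockout vehicle arrays and 0.41 ± 0.02 on the wild type TGF-β1 arrays, relative to wild type vehicle arrays with an SD of 0.04 (n = 4 each). For the chaperonin these values were 0.80 ± 0.03, -0.02 ± 0.04 and 0.44 ± 0.03, with an SD of 0.05 on the wild type vehicle arrays. The activator class stayed between -0.13 and 0.06 on all 16 arrays.

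Genes that work with the proteasome moved with it in part. Of 14 tested partners and assembly factors outside the family (Paaf1 was too dim), 12 rose and 2 fell in knockout cells (median 0.44), and 11 rose and 2 fell in wild type cells (median 0.21). Those with the smallest adjusted p in knockout cells were Txnl1, a thioredoxin bound to the 19S particle, at 0.98 ± 0.04 in knockout and 0.39 ± 0.04 in wild type cells, Usp14, a ubiquitin protease of the 19S particle, at 0.93 ± 0.04 and 0.36 ± 0.04, Uchl5, another, at 0.76 ± 0.05 and 0.28 ± 0.05, and the 20S assembly chaperone Psmg1 at 0.61 ± 0.04 and 0.45 ± 0.04. Zfand5 and Zfand2a, named because they were the 2 that fell, fell in both. With quantile normalization 10 of the 14 rose and 3 fell in knockout cells. Of 13 ubiquitin and p97 genes, 11 rose and 1 fell in knockout cells and 8 rose in wild type cells, led by the shuttle factor Rad23b at 1.14 ± 0.04 and 0.61 ± 0.04 and Ubqln1 at 1.29 ± 0.06 and 0.63 ± 0.06. With quantile normalization 6 of these 13 rose and 5 fell in knockout cells, and their median turned from above 0 (0.41) to below it (-0.06).

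The immunoproteasome and peptide-loading genes fell without exception in both genotypes, 10 of 10, under all 3 scalings, with medians of -1.21 in knockout and -0.60 in wild type cells. Psmb9 differed by -1.42 ± 0.05 and -0.82 ± 0.05, Psmb8 by -1.03 ± 0.06 and -0.61 ± 0.06, the peptide-loading protein Tapbp by -1.51 ± 0.05 and -1.10 ± 0.05, and the peptide transporter subunit Tap1 by -1.38 ± 0.08 and -0.37 ± 0.08. Summed over each list, markers of macrophages and leukocytes, endothelium and mesothelium were also lower with TGF-β1, though not every marker fell. Of 11 macrophage and leukocyte markers 9 fell in each genotype, and 1 rose in knockout cells. All 8 endothelial markers fell in both. Of 5 mesothelial markers 4 fell in knockout cells, while 3 fell and 2 rose in wild type cells. The summed intensity of the 11 tested macrophage and leukocyte markers was 58880 to 64400 on knockout TGF-β1 arrays, 126500 to 129600 on knockout vehicle, 82450 to 88180 on wild type TGF-β1 and 150600 to 174300 on wild type vehicle arrays. For 8 of 8 endothelial markers the ranges were 970.1 to 1065, 3618 to 3770, 1713 to 1774 and 4105 to 4437 in that order of groups, and for 5 of 5 mesothelial markers 11010 to 12540, 20580 to 21390, 19930 to 20970 and 23440 to 24680. The part of these cells in the fall of the immune genes, Psme1 and Psmb10 was not tested, and in bulk samples fewer cells of a type and less RNA per cell cannot be told apart.

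Sums of the 10 fibroblast markers, all tested, were 603000 to 650000 on knockout TGF-β1 arrays, 540400 to 575700 on knockout vehicle, 640700 to 671900 on wild type TGF-β1 and 509000 to 565900 on wild type vehicle arrays. The mean log2 level of these 10, which weights them equally, was -0.24, -0.01 and 0.20 relative to wild type vehicle, and 6 rose and 4 fell in knockout cells, against 7 and 3 in wild type cells. Of 11 epithelial markers 8 were tested, with sums of 9639 to 10540, 6139 to 6315, 9795 to 10570 and 6430 to 7303 in the same order, and Epcam, Sftpa1 and Nkx2-1 were too dim to be tested. The mean log2 level of these 8 went the other way, at -1.57, -0.26 and -1.34 relative to wild type vehicle. The sums of 6 pericyte and smooth muscle markers were 6117 to 6516, 4137 to 4368, 4406 to 4535 and 3495 to 3804. Of these 6 markers 4 rose and 2 fell in knockout cells, and 2 rose and 2 fell in wild type cells. The part of these cell types in the subunits' differences was not tested.

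Genes around NRF1 and NRF2 gave no common direction, with 6 of 12 up and 4 down in knockout cells and 4 up and 5 down in wild type cells, which became 2 up and 7 down with quantile normalization. Nfe2l1, which encodes NRF1, differed by 0.48 ± 0.04 and 0.37 ± 0.04, and Ngly1, the deglycosylase that processes NRF1, by -0.68 ± 0.05 and -0.18 ± 0.05. The thioredoxin reductase Txnrd1 differed by 0.58 ± 0.04 in knockout cells (adjusted p = 2.93e-09) and by -0.00 ± 0.04 in wild type cells (adjusted p = 0.942), and the small Maf gene Maff by 0.58 ± 0.05 and -0.14 ± 0.05.

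Most partners and listed clients of the chaperonin also rose, where 46.6% of all genes did in knockout and 41.3% in wild type cells. Of 10 partners 8 rose and 1 fell in both genotypes (medians 0.75 and 0.44). Tcp1, the first CCT subunit, whose symbol the rule does not match, differed by 1.22 ± 0.04 and 0.58 ± 0.04, close to Cct2 and Cct3. The phosducin-like cochaperone Pdcl3 differed by 1.72 ± 0.06 and 0.76 ± 0.06, and the prefoldin subunits Pfdn4 and Pfdn1, which hand actin and tubulin to CCT, by 1.48 ± 0.06 and 1.28 ± 0.06 in knockout cells and 0.58 ± 0.06 and 0.65 ± 0.06 in wild type cells. Of 14 genes listed as clients, 14 rose in knockout cells and 13 in wild type cells (medians 0.94 and 0.58). With quantile normalization 11 rose and 1 fell in knockout cells, and 9 rose and 2 fell in wild type cells. With loess normalization 12 rose and 2 fell in knockout cells, and 9 rose and 2 fell in wild type cells. The client genes with the smallest adjusted p were the tubulin Tubb6 at 1.78 ± 0.03 and 0.97 ± 0.03, the smooth muscle actin Acta2 at 2.63 ± 0.05 and 2.19 ± 0.05, the cytoplasmic actin Actg1 at 1.71 ± 0.03 and 0.91 ± 0.03, and the cell cycle regulator Cdc20 at 1.04 ± 0.04 and 0.89 ± 0.04. The list holds Cdh1, the symbol of E-cadherin, which is not the client protein of that name (Fzr1) and also stands among the epithelial markers.

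Of 17 heat shock genes, 13 rose and 2 fell in knockout cells and 12 rose and 3 fell in wild type cells (medians 0.36 and 0.26), but with quantile normalization 6 rose and 8 fell in knockout cells and the median was -0.09. The inducible Hspa1a fell, by -1.16 ± 0.04 and -0.68 ± 0.04 as signed differences, while the cochaperone Hspa4 differed by 1.64 ± 0.03 and 0.96 ± 0.03 and the mitochondrial chaperonin Hspd1 by 1.08 ± 0.04 and 0.52 ± 0.04. Proliferation genes rose in 9 of 10 cases in both genotypes (medians 0.74 and 0.48). Aurka differed by 1.60 ± 0.05 and 1.02 ± 0.05, Myc by 1.62 ± 0.06 and 0.71 ± 0.06, and Ccnb1 by 1.15 ± 0.06 and 0.58 ± 0.06. The summed intensity of the 10 was 42970 to 47510 on knockout TGF-β1, 28050 to 28600 on knockout vehicle, 34470 to 35840 on wild type TGF-β1 and 26600 to 28820 on wild type vehicle arrays. The part of proliferation in the subunits' differences was not tested.

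**Figure D5:**
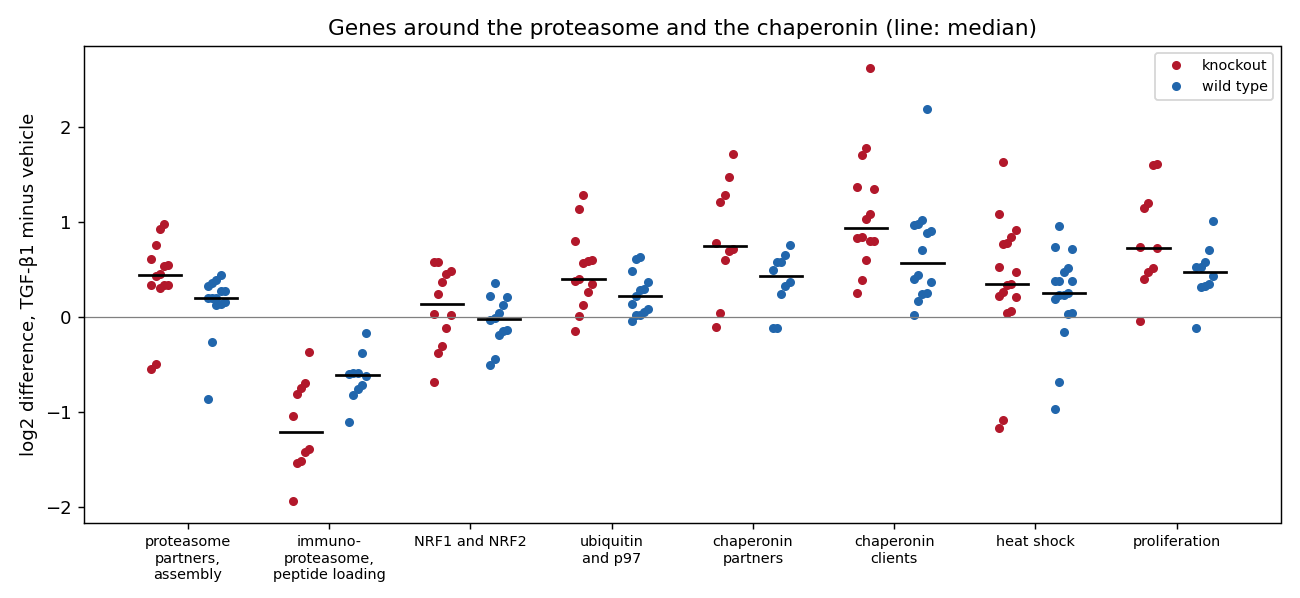
Log2 difference between TGF-β1 and vehicle of each gene in 8 lists, in knockout (red) and wild type (blue) cells, with the median of the list as a line. All 10 immunoproteasome and peptide-loading genes lie below 0 in both. All 14 genes listed as chaperonin clients, Cdh1 (E-cadherin) among them, lie above 0 on the percentile scale.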

How the data were processed

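Total RNA was labelled with Cy3. Per the file headers, the deposited scanner files hold a background-subtracted intensity for each of 56605 probes, made with Agilent Feature Extraction 11.0.1.1. The authors' deposited value table holds log2 values of 9933 probes with 3 of the subunits. Its normalization is not given in the sources used here. Spots of a probe were averaged, 27 probes with outlier marks left out, log2 intensities shifted to a common 75th percentile, and probes kept that were well above background on all 4 arrays of a group. The brightest probe stood for a gene. One limma 3.58.1 model (R 4.3.3) of the 4 groups was fitted to 15394 genes, with Benjamini-Hochberg adjustment over all of them and calls at an adjusted p under 0.05. On simulated data with 15394 genes it recovered 92.4% of genes changed 2-fold in the knockout comparison and 98.5% in the wild type one, and 86.4% for the interaction. Of genes changed 1.25-fold it recovered 70.1%, 59.7% and 40.3%. The model's false calls in these 3 comparisons were 6.52%, 4.17% and 5.59%. Unlike the data, the simulation changed few genes and held no shift between arrays, so these rates do not cover the effect of scaling. Members, lists and motifs were chosen with earlier results of these data known. Full statistics went to the highest and lowest 3 members of each comparison and the leading member of each class, and for other lists to up to 4 genes with the smallest adjusted p. Alternatives were quantile and loess scaling, normexp background, no filter, mean of probes, the authors' table, slide or replicate as a block, single slides, array weights, 2 groups only and leaving out each array. Figures used Python 3.11.15 and matplotlib 3.10.9.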

Additional observations from a re-analysis of the deposited data

Results flagged for a closer look

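In 6 of 88 groups of 4 arrays examined for 22 members, 1 array stood apart from the other 3, and chance flags about 1 in 20. Psmb7 was 11.84 on knockout vehicle replicate 1 (nearest other array 11.77) and 11.95 on wild type vehicle replicate 2 (nearest 11.76). Psmd4 was 14.38 on wild type TGF-β1 replicate 1 (nearest 14.57), Cct6b 4.07 on knockout TGF-β1 replicate 3 (nearest 4.38), Psme4 12.39 on wild type vehicle replicate 2 (nearest 12.57) and Psmd3 15.03 on knockout TGF-β1 replicate 1 (nearest 15.18).

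The response to TGF-β1 differed between the genotypes by the interaction term (knockout minus wild type, limma, adjusted p under 0.05) for 20 of these members. It was negative for Psme1 (-0.26) and Psmb10 (-0.21). In the 20S core it was positive for Psma8 (0.44), Psmb7 (0.62), Psmb5 (0.43), Psma3 (0.40), Psma4 (0.39) and Psmb4 (0.17). In the 19S particle and its assembly it was positive for Psmd5 (0.74), Psmd8 (0.53), Psmd12 (0.48), Psmd1 (0.45), Psmc4 (0.38), Psmc6 (0.34), Psmd4 (0.27) and Psmd3 (0.17). It was also positive for the activator Psme4 (0.24) and for Cct3 (0.69), Cct6a (0.58) and Cct2 (0.53). For Psma8, both responses were negative and the wild type one was the lower.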

How the results depend on the processing

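With quantile normalization 8 subunits fell in knockout and 8 in wild type cells, 6 were lower in knockout than in wild type cells under TGF-β1, and the interaction was positive for 21 and negative for 5. With cyclic loess, added after seeing the data, 27 rose and 7 fell in wild type cells, 7 were lower in knockout cells under TGF-β1, 0 were higher and 2 lower with vehicle, and the interaction was negative for 5. Among members described with full statistics, only turns of sign with a call in the main or the other setting are listed. These included Psme4 in wild type cells (-0.0273 quantile, -0.0577 loess), Psma4 in wild type cells (-0.00594 loess) and the interactions of Psmd3 (-0.0761, -0.0370) and Psmb4 (-0.0683, -0.0342). Other members' signs also turned, among them those of Psmb6 (knockout -0.08 quantile, -0.01 loess, wild type -0.16, -0.12) and Psmc3 (knockout -0.13, -0.02, wild type -0.07, -0.01). Those of Psma2 in wild type cells (-0.05, -0.02) and Psmd2 in wild type cells (-0.01 loess) did too. So did the interactions of Psma5 (-0.05 quantile) and Psmc3 (-0.06, -0.02). With quantile normalization Psmd10 turned to -0.19 in knockout cells, -0.08 in wild type cells and -0.10 between genotypes under TGF-β1. Psme3 in knockout cells turned to -0.16 with quantile and -0.21 with loess normalization. Signs turned too for Cct6b with normexp in the knockout response (0.11) and between genotypes under TGF-β1 (0.0261), and for Psma8 in the knockout response in the authors' deposited table (0.46, adjusted p = 0.306), which holds 3 of the 49 subunits and gave no counts. The cause was not tested. The 2 subunits higher in knockout cells with vehicle became 0 with normexp, without a filter and within either slide, 1 with the mean of probes or 2 groups only, 5 with slide as a block and 4 with array weights, and the 1 lower became 0 within either slide. Within slide 1, 3 fell in knockout cells and the interaction was positive for 17 and negative for 1, and within slide 2 it was negative for 1. Leaving out single arrays gave 0 to 2 higher and 0 to 1 lower with vehicle. In the replicate block 4 were higher with vehicle. Same-numbered arrays of different groups correlated at -0.034 to 0.218 after group means were removed, with a median of 0.077. The median was 0.051 for other numbers on the same slide and -0.057 across slides. Of 16 arrays, 13 correlated best with an array of their own number. Whether the numbers pair the experiments is therefore not settled, and the main model treats the arrays as unpaired. Over all alternatives 363 counts stayed within 1.5 times and 44 did not. Of the medians 110 moved by at least the spread allowed for them and 1235 did not. Of results for single genes 86 lost their call, 16 gained one, 10 turned sign with a call in either setting, and 2851 did none of these. The less certain members include Psma8 and Cct6b, which were dim, and Psmf1, whose probes differed in direction. They also include Psmb6 and Psmc3, whose TGF-β1 responses turned sign past the threshold with quantile normalization.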
